A study of Mus musculus with 8 samples.

Results

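The TIP60-p400 complex was examined through 10 genes that encode its subunits, Kat5, Ep400, Trrap, Ruvbl1, Ruvbl2, Epc1, Ing3, Brd8, Dmap1 and Morf4l1, found by symbol among 38991 gene identifiers. Each symbol matched a single identifier in each of the 8 libraries, and all 10 genes were among the 12462 genes tested, those averaging 1 FPKM (fragments scaled to transcript length and library size) or more in 1 of the genotypes. The iPKO group comprised 4 libraries of inducible Prmt5 knockout embryonic stem cells, for which the labels mainly name the line PC4, and the iPHet group 4 libraries of control cells, mainly of the line PC1. The labels do not spell out the alleles. The name iPHet points to a heterozygous control, which may itself lack an intact copy of Prmt5. Both genotypes were male C57BL/6 cells derived from mouse blastocysts of embryonic day 3.5, held in 2i ground state medium, and both received 2 µM 4-hydroxytamoxifen for 48 hours, the drug that brings about the deletion. Because each genotype rests mainly on 1 line, genotype and line cannot be told apart. The labels do not tie the libraries to separate cultures, and the spread behind each p-value may thus be technical only. In bulk RNA, fewer cells of a kind and less RNA per cell cannot be told apart.

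TIP60-p400 is the mammalian counterpart of the yeast NuA4 complex. It joins a histone acetyltransferase, which acetylates histones H4 and H2A, to an ATPase that exchanges the histone variant H2A.Z into nucleosomes. It acts in transcription and in the repair of DNA double-strand breaks, and knockdown studies in mouse embryonic stem cells have linked it to self-renewal. PRMT5, an arginine methyltransferase of spliceosomal Sm proteins, has been connected to the complex by methylation of the RUVBL1 protein, known from human cells, and by an effect on the splicing of Kat5. The files give RNA per gene, so the methylation of a protein and the use of a single exon are both outside what was measured here.

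None of the 10 genes was called different between iPKO and iPHet by limma at an adjusted p under 0.05, while 15.8% of all tested genes were (6.3% higher and 9.53% lower in iPKO). At an unadjusted p under 0.05, 1 of the 10 genes passed (Ing3), against 31.5% of all tested genes. Of the 10 log2 changes, 8 were negative and 2 were positive (Morf4l1 and Epc1). The median over the 10 genes was -0.13, against -0.04 over all tested genes, and the median absolute log2 change was 0.16, against 0.19 over all tested genes. In 1 of the 10 genes (Ing3, lower in iPKO) the 4 libraries of each genotype did not overlap, against 25.1% of all tested genes. By the ratio of means, Epc1 was highest at 119% of the iPHet level and Ing3 lowest at 84.4%.

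Prmt5 itself checked the labels. It was 11.8, 14.5, 12.4 and 15.0 FPKM in iPKO libraries 1 to 4, against 52.8, 70.8, 54.3 and 72.2 FPKM in iPHet libraries 1 to 4, and the 2 sets lie far apart. The mean in iPKO was 21.5% of that in iPHet (log2 change -2.13, SE 0.13, limma adjusted p = 0.000171). With libraries 1 and 3, and 2 and 4, of a genotype averaged, the limma adjusted p of Prmt5 was 0.191, in a fit that called 7 of the 12462 tested genes. The 7 stem cell markers summed to 1200 to 1320 FPKM in iPKO and 1220 to 1480 FPKM in iPHet. The 6 feeder fibroblast markers summed to 0.977 to 1.77 FPKM in iPKO and 1.33 to 2.44 FPKM in iPHet, with Postn and Lum at 0 in all libraries. The 6 markers of differentiated lineages summed to 3.10 to 4.68 FPKM in iPKO and 3.83 to 5.16 FPKM in iPHet. Summed FPKM was 411827 to 417539 in iPKO and 417672 to 458856 in iPHet, with iPHet 1 and 3 standing above the other libraries. With FPKM and no counts deposited, read depth itself is unknown. If FPKM was not rescaled between libraries, which the sources do not say, the lowest values give depth as a ratio. This ratio ran from 0.768 (iPHet 3) to 1.25 (iPKO 1) of that of iPHet 1.

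Libraries of a genotype fell into close pairs, and this bears on every test below. Over the tested genes, log2 differences had an SD of 0.305 to 0.409 within a pair (1 with 3, 2 with 4), against 0.573 to 0.66 between the other libraries of a genotype. The labels do not say what the odd and even numbers share. Values are therefore also given within the odd-numbered libraries (1 and 3) and within the even-numbered libraries (2 and 4).

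Kat5 is the catalytic subunit, an acetyltransferase of the MYST family that also acetylates the ATM kinase. The gene (ENSMUSG00000024926) lies at chr19:5603017-5610094 on the minus strand of mm10. GENCODE vM21 lists 12 transcripts for it, 6 of them protein-coding, and exon 5 of the 14 exons of a protein-coding transcript (chr19:5608802-5608957) is skipped in 2 other protein-coding transcripts. This exon of 156 bases, or 52 codons with no remainder, is shown because the splicing of Kat5 is what ties the gene to PRMT5, and because reads with and without it enter the same gene value in the files.
Kat5 exon 5, coding strand: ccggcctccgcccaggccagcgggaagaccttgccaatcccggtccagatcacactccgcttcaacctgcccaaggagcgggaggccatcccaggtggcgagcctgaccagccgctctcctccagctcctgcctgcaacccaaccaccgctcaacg

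Kat5 was 17.5, 22.1, 20.0 and 22.4 FPKM in iPKO libraries 1 to 4, against 22.2, 20.6, 22.6 and 21.3 FPKM in iPHet libraries 1 to 4. The groups overlapped, and the lowest 2 values were iPKO 1 and iPKO 3. The means were 20.5 ± 2.24 FPKM in iPKO and 21.7 ± 0.885 FPKM in iPHet (SD, n = 4 each), a log2 change of -0.08 (SE 0.08, 95% interval -0.27 to 0.11, limma adjusted p = 0.553). This interval is of the gene-level value and says nothing of the share of transcripts with exon 5. At its 3′ end the locus of Kat5 overlaps that of Rnaseh2c, a subunit of ribonuclease H2 on the opposite strand, by 423 bases. Rnaseh2c was 10.4 ± 1.72 FPKM in iPKO and 22.5 ± 4.62 FPKM in iPHet (SD, n = 4 each), and it fell by 1.03 on the log2 scale (limma adjusted p = 0.0066). The sources used here do not say whether strand was used, and the part of this neighbour in the Kat5 value was not tested.

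Ep400 is the ATPase that exchanges H2A.Z and the scaffold of the complex (ENSMUSG00000029505, chr5:110664373-110770717, minus strand). It was 33.8, 30.7, 32.5 and 33.0 FPKM in iPKO libraries 1 to 4, against 30.2, 38.9, 29.5 and 34.9 FPKM in iPHet libraries 1 to 4. The iPKO values lay within the range of the iPHet values. The means were 32.5 ± 1.31 FPKM in iPKO and 33.3 ± 4.39 FPKM in iPHet (SD, n = 4 each), a log2 change of -0.03 (SE 0.09, 95% interval -0.24 to 0.18, limma adjusted p = 0.865). The sign turned to 0.04 with quantile normalization and to 0.03 with median ratio scaling. Trrap, the large pseudokinase through which transcription factors recruit the complex (ENSMUSG00000045482, chr5:144768092-144859778, plus strand), was 17.1, 17.8, 19.2 and 17.7 FPKM in iPKO libraries 1 to 4, against 17.9, 20.9, 19.3 and 22.9 FPKM in iPHet libraries 1 to 4. Only iPHet 2, 3 and 4 stood above every iPKO library. The means were 18.0 ± 0.866 FPKM in iPKO and 20.3 ± 2.17 FPKM in iPHet (SD, n = 4 each), a log2 change of -0.16 (SE 0.08, 95% interval -0.35 to 0.03, limma adjusted p = 0.217).

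Ruvbl1 and Ruvbl2 encode the AAA+ ATPases that assemble into a shared ring and serve TIP60-p400, the INO80 and SRCAP remodelers and the R2TP co-chaperone. Ruvbl1 (ENSMUSG00000030079, chr6:88465409-88497572, plus strand) was 43.2, 64.0, 43.2 and 66.0 FPKM in iPKO libraries 1 to 4, against 52.6, 68.5, 52.3 and 72.1 FPKM in iPHet libraries 1 to 4. Ruvbl2 (ENSMUSG00000003868, chr7:45421852-45438096, minus strand) was 33.6, 55.3, 31.3 and 59.7 FPKM in iPKO libraries 1 to 4, against 42.8, 58.5, 41.6 and 58.8 FPKM in iPHet libraries 1 to 4. Both genes were higher in the even than in the odd libraries of each genotype. For Ruvbl1 the even libraries averaged 1.504 times the odd ones in iPKO and 1.34 times in iPHet, and for Ruvbl2 1.77 times in iPKO and 1.39 times in iPHet. The log2 change of Ruvbl1 was -0.19 (SE 0.18, 95% interval -0.61 to 0.23, limma adjusted p = 0.512) and that of Ruvbl2 -0.20 (SE 0.24, 95% interval -0.74 to 0.34, limma adjusted p = 0.611), the widest intervals of the 10 genes. Since the difference between odd and even libraries enters that error, the fit with the replicate number as a block gave a narrower interval for Ruvbl1 (-0.32 to -0.06) and called it lower (limma adjusted p = 0.0465), but not Ruvbl2 (limma adjusted p = 0.15). The ratio of Ruvbl1 to Ruvbl2, both per transcript length, was 1.23 ± 0.125 in iPKO and 1.22 ± 0.0358 in iPHet (SD, n = 4 each) and ran from 1.11 to 1.38 over the 8 libraries (exact two-sided permutation test, p = 0.943).

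The promoters of Ruvbl1 and Ruvbl2 are shown because the levels of both genes followed the odd and even libraries together. Each run holds 250 bases before and 50 after a transcription start given by RefSeq in GRCm38.p6, at chr6:88465159-88465458 on the plus strand and chr7:45434415-45434714 on the minus strand. The Ruvbl1 window spans the 5′ end of the Ruvbl1 locus given above (chr6:88465409). The Ruvbl2 window lies wholly inside the Ruvbl2 locus, whose 5′ end is at chr7:45438096. Capitals mark the GC box GGGCGG and the CCAAT box, on either strand.
Ruvbl1 promoter: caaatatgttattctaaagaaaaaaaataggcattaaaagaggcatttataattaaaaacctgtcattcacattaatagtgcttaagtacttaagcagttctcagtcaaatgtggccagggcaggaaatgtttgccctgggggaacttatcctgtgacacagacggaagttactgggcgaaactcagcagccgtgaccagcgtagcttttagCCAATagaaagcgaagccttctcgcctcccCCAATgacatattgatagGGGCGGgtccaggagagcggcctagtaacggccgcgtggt
Ruvbl2 promoter: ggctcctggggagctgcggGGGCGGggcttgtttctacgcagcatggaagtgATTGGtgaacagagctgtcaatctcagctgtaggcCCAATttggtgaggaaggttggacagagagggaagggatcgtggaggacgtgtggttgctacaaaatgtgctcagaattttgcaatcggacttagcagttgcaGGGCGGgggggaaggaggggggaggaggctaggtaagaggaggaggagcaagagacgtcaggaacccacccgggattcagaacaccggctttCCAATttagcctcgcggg

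RefSeq promoters were matched for 8 of the 10 genes (not for Brd8 and Epc1), in 10 windows of 300 bases, since Kat5 and Ing3 have 2 windows each. On either strand, the GC box GGGCGG occurred in 8 of these 10 windows and in 35.7% of 32851 promoters, and CCAAT in 6 of 10 windows and in 37.4% of promoters. The 2 windows of Ing3 overlap. The ETS motif CCGGAAG occurred in 2 of 10 windows (Kat5 and Dmap1, 8.86% of promoters), and the MYC E-box CACGTG in 1 of 10 (Kat5, 7.15%). The Ruvbl1 window was 45.7% G and C, under the median of 52.7% over all promoters, and that of Ruvbl2 57.3%. Every window other than that of Ruvbl1 lay above this median, from 54% (Ing3) to 71% (Ep400). All 10 windows held more CG pairs than the median of 7, from 11 (Ruvbl1) to 33 (Ep400). The motif shares are over all promoters, not over promoters of like G and C content. These are matches of letters, not sites that the RNA data tested.

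**Figure D1:**
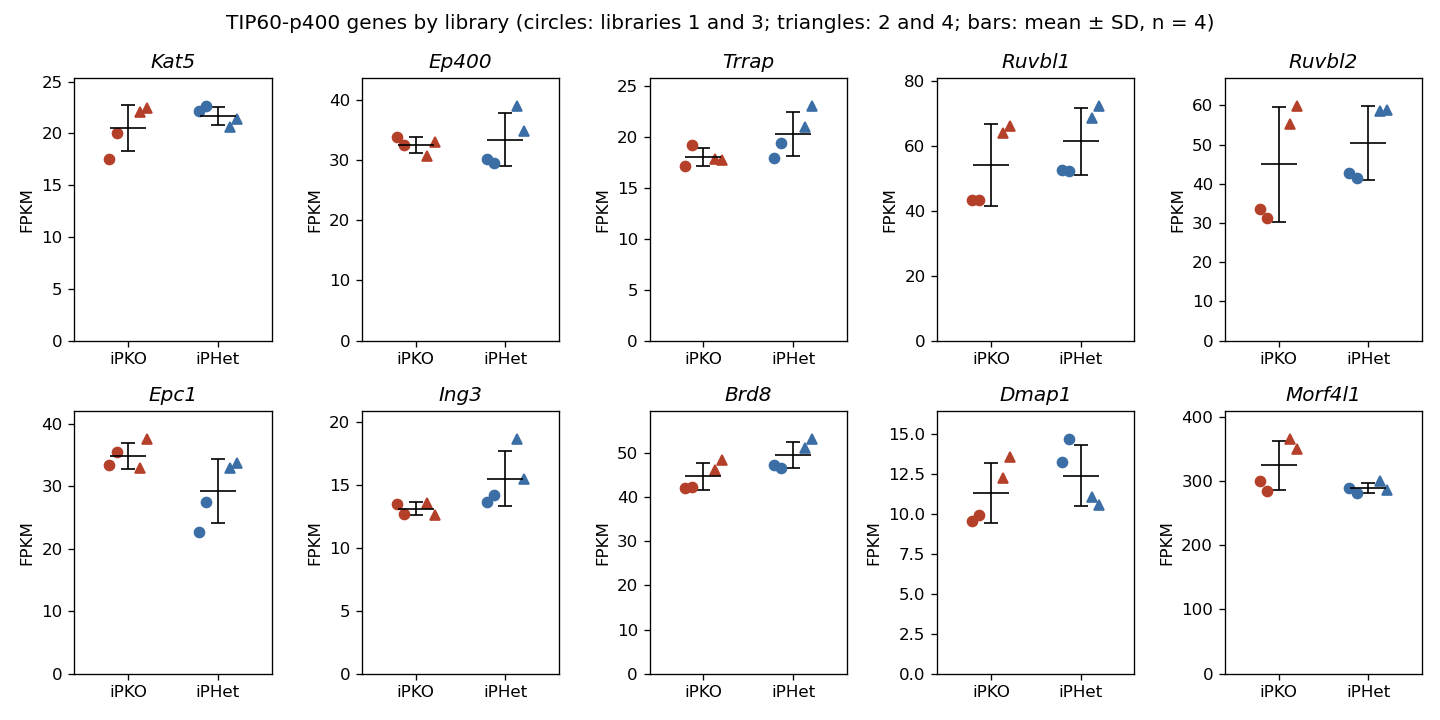
FPKM of the 10 genes in each library (vertical axes from 0, one panel per gene), iPKO in red at the left and iPHet in blue at the right, circles for libraries 1 and 3, triangles for libraries 2 and 4, bars for mean ± SD (n = 4). Ruvbl1, Ruvbl2 and Brd8 have triangles above circles in both genotypes. Kat5 and Dmap1 also separate them in both, with the order turned round between the genotypes. Ing3 is the gene whose genotypes do not overlap.

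Epc1, Ing3 and Kat5 belong to the catalytic core that acetylates nucleosomes. Epc1, an enhancer of polycomb protein that holds this core together (ENSMUSG00000024240, chr18:6435951-6516108, minus strand), was 33.5, 33.0, 35.6 and 37.5 FPKM in iPKO libraries 1 to 4, against 22.8, 33.0, 27.5 and 33.7 FPKM in iPHet libraries 1 to 4. iPHet 1 and 3 lay below every other library, and the even iPHet libraries lay among the iPKO values. The means were 34.9 ± 2.10 FPKM in iPKO and 29.2 ± 5.14 FPKM in iPHet (SD, n = 4 each), a log2 change of 0.26 (SE 0.12, 95% interval -0.02 to 0.54, limma adjusted p = 0.189). Without iPHet 1 this log2 change was 0.15, and with midpoints of the deposited confidence bounds 0.20, smaller in size than those of Ruvbl2 (-0.27), Ing3 (-0.22) and Brd8 (-0.21). Ing3, whose PHD finger reads methylated histone H3 (ENSMUSG00000029670, chr6:21949571-21976038, plus strand), was 13.5, 13.6, 12.7 and 12.6 FPKM in iPKO libraries 1 to 4, against 13.7, 18.6, 14.2 and 15.5 FPKM in iPHet libraries 1 to 4. Each iPKO library lay below each iPHet library, with 13.6 FPKM in iPKO 2 close under 13.7 FPKM in iPHet 1. The means were 13.1 ± 0.519 FPKM in iPKO and 15.5 ± 2.22 FPKM in iPHet (SD, n = 4 each). The log2 change of Ing3 was -0.22 (SE 0.09, 95% interval -0.44 to -0.0012, limma unadjusted p = 0.049, adjusted p = 0.157), and the two-sided p of an exact permutation test was 0.0286, the smallest possible with 4 libraries in each genotype. Ing3 thus did not pass when adjusted over all tested genes.

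Brd8 carries a bromodomain, Dmap1 binds the DNA methyltransferase DNMT1, and Morf4l1 is a chromodomain protein that also sits in a SIN3 complex and binds PALB2. Brd8 (ENSMUSG00000003778, chr18:34598615-34624601, minus strand) was 42.1, 46.2, 42.4 and 48.5 FPKM in iPKO libraries 1 to 4, against 47.4, 51.2, 46.8 and 53.2 FPKM in iPHet libraries 1 to 4. Within odd and within even libraries the iPKO values lay below the iPHet values, while over all 8 they overlapped. The means of Brd8 were 44.8 ± 3.07 FPKM in iPKO and 49.7 ± 3.05 FPKM in iPHet (SD, n = 4 each), a log2 change of -0.15 (SE 0.07, 95% interval -0.31 to 0.02, limma adjusted p = 0.199), and the replicate block called it lower (limma adjusted p = 0.0353). Dmap1 (ENSMUSG00000009640, chr4:117674681-117682273, minus strand) was 9.58, 12.2, 9.91 and 13.6 FPKM in iPKO libraries 1 to 4, against 13.3, 11.1, 14.7 and 10.6 FPKM in iPHet libraries 1 to 4. Here the order of odd and even libraries was turned round between the genotypes: the even libraries were the higher ones in iPKO and the lower ones in iPHet. The means of Dmap1 were 11.3 ± 1.90 FPKM in iPKO and 12.4 ± 1.91 FPKM in iPHet (SD, n = 4 each), a log2 change of -0.12 (SE 0.14, 95% interval -0.44 to 0.19, limma adjusted p = 0.587). Morf4l1 (ENSMUSG00000062270, chr9:90091671-90114820, minus strand) was 300.3, 365, 285 and 350.0 FPKM in iPKO libraries 1 to 4, against 289, 300.5, 281 and 287 FPKM in iPHet libraries 1 to 4. iPKO 2 and 4 stood above the other 6 libraries. The means of Morf4l1 were 325 ± 38.4 FPKM in iPKO and 289 ± 8.14 FPKM in iPHet (SD, n = 4 each), a log2 change of 0.16 (SE 0.09, 95% interval -0.05 to 0.37, limma adjusted p = 0.263), which quantile normalization raised to 0.29 and called (limma adjusted p = 0.0346, 1 of 10 genes, with 15.1% of all tested genes called).

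**Figure D2:**
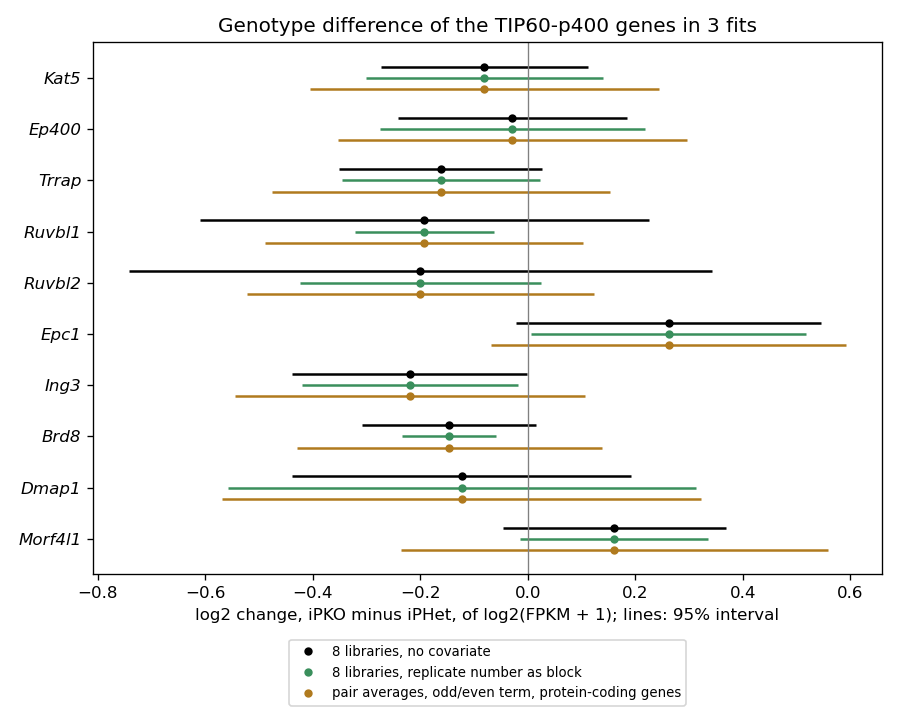
Log2 change (iPKO minus iPHet, horizontal axis) of the 10 genes with 95% intervals in 3 limma fits, from top to bottom in each row all 8 libraries with no covariate (black), the replicate number as a block (green) and the averages of paired libraries with an odd/even term over protein-coding genes (ochre). In the first fit Ing3 has the interval that just misses 0, and in the block fit Ruvbl1 and Brd8 were called.

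The replicate numbers met the limit set for paired numbers, so the block is given beside the first fit. It called 2 of the 10 genes, Brd8 and Ruvbl1, both lower, where 27.5% of all tested genes were called. A term for odd and even libraries called the same 2 genes lower, where 37.9% of all tested genes were called. None of the 10 was called with pair averages (0.0562% of all tested genes called), with pair averages and an odd/even term (0.0481%), or with an estimated correlation within pairs (0.417%), and 0 of the 10 passed an unadjusted p under 0.05 in these 3 fits. The fit of pair averages with an odd/even term, limited to protein-coding genes, where 1.77% of genes were called, called none of the 10 (limma adjusted p from 0.339 for Epc1 to 0.929 for Ep400), and 0 of the 10 passed an unadjusted p under 0.05. Leaving out any single library called none of the 10 either, with the lowest limma adjusted p at 0.116 (Ing3, without iPHet 1). Across all tested genes 39.8% of the called genes were higher in iPKO, 49.7% with quantile normalization and 55.4% with median ratio scaling, and the median log2 change of the 10 genes was -0.10 with quantile normalization and -0.08 with median ratio scaling. Over all tested genes these scalings put the median at -0.01 and 0.01.

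Within the odd libraries 6 of the 10 genes were called by limma with 2 libraries against 2, where 45.4% of all genes tested there were called. These were Dmap1 (log2 change -0.48), Ruvbl2 (-0.37), Ruvbl1 (-0.27) and Brd8 (-0.15) on the lower side, and Epc1 (0.45) and Ep400 (0.15) on the higher side. Within the even libraries 2 of 10 were called, Trrap (-0.29) and Morf4l1 (0.28), where 40.2% of all genes tested there were called. With close pairs as the replicates, these tests measure the spread within a pair. None of the 10 genes was called in the same direction in both sets, and the share of all tested genes that were was not computed. Brd8 had like changes in both, -0.15 in odd (limma adjusted p = 0.0262) and -0.14 in even libraries (limma adjusted p = 0.076). Kat5 (-0.24 in odd, 0.08 in even), Dmap1 (-0.48 in odd, 0.23 in even) and Ep400 (0.15 in odd, -0.20 in even) had opposite signs in the odd and even libraries, 3 of 10 genes, against 36% of all tested genes. After median ratio scaling the values for Dmap1 were -0.40 in odd and 0.26 in even libraries, for Kat5 -0.16 in odd and 0.11 in even, and for Ep400 0.23 in odd and -0.17 in even. The same scaling gave opposite signs for Trrap (0.04 in odd, -0.26 in even) and Ruvbl2 (-0.29 in odd, 0.01 in even) as well. An interaction of genotype with odd and even libraries was called for 5 of the 10 genes (Kat5, Ep400, Ruvbl2, Dmap1 and Morf4l1), against 28.5% of all tested genes.

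**Figure D3:**
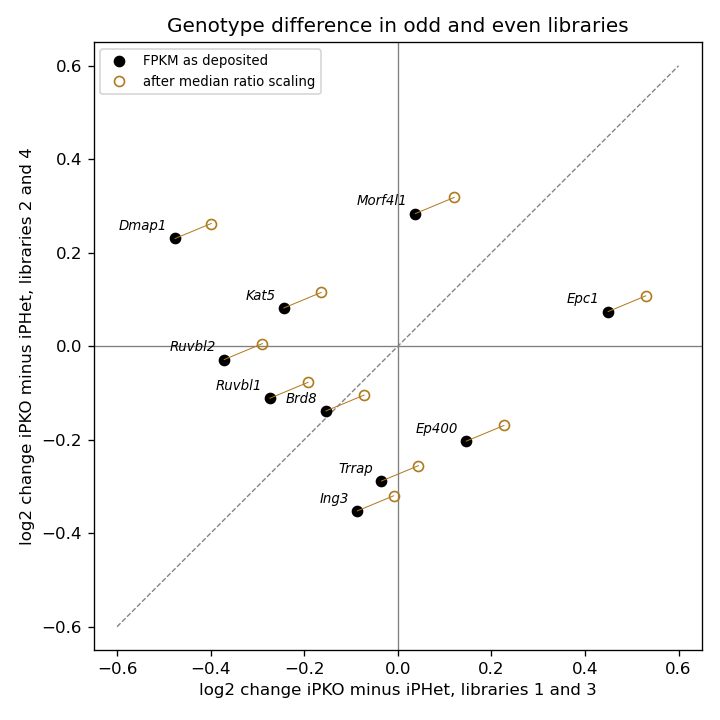
Log2 change (iPKO minus iPHet) of each gene in libraries 1 and 3 (horizontal axis) against libraries 2 and 4 (vertical axis), filled for FPKM as deposited and open after median ratio scaling, with the dashed line for equal changes. Dmap1 and Kat5 lie at the upper left, Ep400 at the lower right, and Brd8 on the line.

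The 10 genes spanned a wide range of levels, each set per transcript length. Morf4l1 was the most abundant at a mean of 307 FPKM over the 8 libraries, above 98.7% of the other tested genes. Ruvbl1 (57.8 FPKM), Ruvbl2 (47.7 FPKM) and Brd8 (47.2 FPKM) followed, then Ep400 (32.9 FPKM) and Epc1 (32.1 FPKM), then Kat5 (21.1 FPKM), Trrap (19.1 FPKM), Ing3 (14.3 FPKM) and Dmap1 (11.9 FPKM), the last above 53.0% of the other tested genes. Ranges over the 8 libraries did not overlap between Morf4l1 and Ruvbl1, between Brd8 and Ep400, or between Epc1 and Kat5. Ruvbl2 stood above Brd8 in 4 of 8 libraries, and Ep400 above Epc1 in 5 of 8, so these neighbours had no set order by FPKM. Kat5 lay below Ruvbl1 and Ruvbl2 in every library, and the ratio of Ep400 to Kat5 was 1.603 ± 0.235 in iPKO and 1.55 ± 0.269 in iPHet (SD, n = 4 each; exact two-sided permutation test, p = 0.714).

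The order carries a limit in the files themselves. The deposited FPKM lay above its own upper confidence bound in 8 of 8 libraries for Ep400 and Ruvbl2 and in 7 of 8 for Epc1, and below the lower bound in 7 of 8 for Brd8 and 4 of 8 for Morf4l1. Of all tested genes 16.9% lay outside their bounds in all 8 libraries. For Kat5, Trrap, Ruvbl1, Ing3 and Dmap1 the FPKM lay within the bounds in every library. Ruvbl2 was 1.40 to 1.58 times the midpoint of its bounds, so by midpoints it averaged 29.3 ± 9.24 FPKM in iPKO and 34.8 ± 7.17 FPKM in iPHet (SD, n = 4 each), and the ratio of Ruvbl1 to Ruvbl2 was 1.89 ± 0.162 in iPKO and 1.78 ± 0.0705 in iPHet. By midpoints Brd8 lay above Ruvbl2 in 8 of 8 libraries, and the ranges of Epc1 (from 20.1 FPKM) and Kat5 (up to 22.6 FPKM) overlapped. With midpoints in place of FPKM none of the 10 genes was called by limma (16.5% of all tested genes were), 0 passed an unadjusted p under 0.05, and Ruvbl2 had a log2 change of -0.27 (limma adjusted p = 0.45). Gys1, a glycogen synthase gene on the opposite strand that overlaps Ruvbl2 over 3253 bases, was 26.9 ± 1.87 FPKM in iPKO and 27.5 ± 1.64 FPKM in iPHet (SD, n = 4 each).

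**Figure D4:**
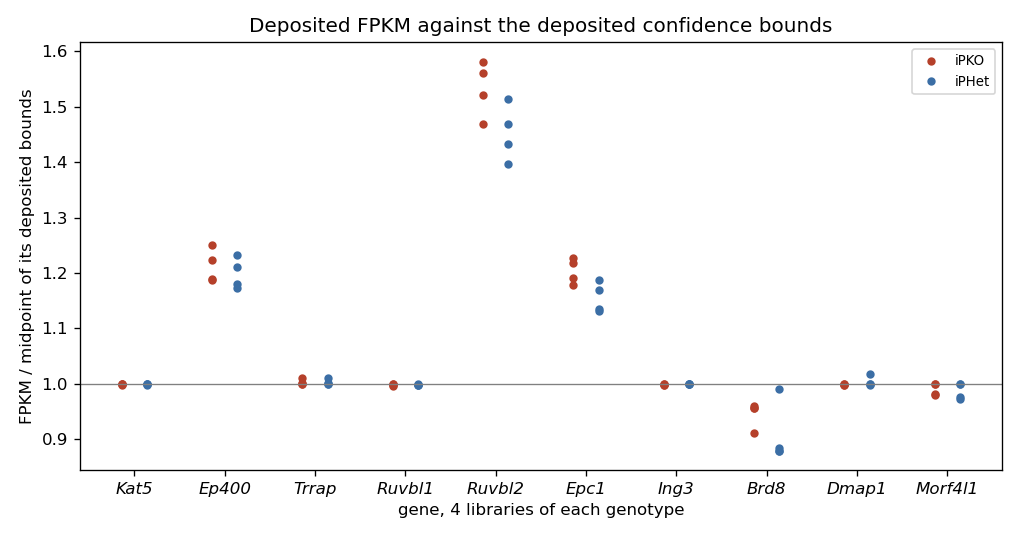
Deposited FPKM divided by the midpoint of its deposited confidence bounds (vertical axis, no unit) for each gene and library, iPKO in red left of iPHet in blue. Kat5, Trrap, Ruvbl1, Ing3 and Dmap1 sit near 1, while Ruvbl2 lies between 1.40 and 1.58.

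Of 9 further TIP60-p400 subunits (Epc2, Actl6a, Actb, Mrgbp, Meaf6, Yeats4, Vps72, Mbtd1 and Morf4l2) 0 were called, with a median log2 change of -0.17, and the replicate block called 4, all lower, where it called 27.5% of all tested genes. In the list 0 were called with an estimated correlation within pairs, and 0 with pair averages and an odd/even term. These 2 fits called 0.417% and 0.0481% of all tested genes. The 3 with the smallest p were Epc2, Meaf6 and Actb. Epc2, the paralog of Epc1, was 9.44, 11.3, 8.79 and 11.3 FPKM in iPKO libraries 1 to 4, against 12.5, 13.2, 11.5 and 13.3 FPKM in iPHet libraries 1 to 4 (log2 change -0.29, SE 0.09, limma adjusted p = 0.074, and 0.0189 with the block but 0.288 with pair averages and an odd/even term over protein-coding genes). Each iPKO library lay below each iPHet library, also for Meaf6 and Actb. In either direction, the groups did not overlap in 25.1% of all tested genes. The ratio of Epc1 to Epc2 was taken after both values had been seen and so is given with no test. It was 3.54, 2.93, 4.05 and 3.31 in iPKO libraries 1 to 4, against 1.82, 2.50, 2.38 and 2.53 in iPHet libraries 1 to 4. These ratios did not overlap, but Epc2 alone already set the genotypes apart, so this adds no support. The Epc1 FPKM lay above its upper bound in 7 of 8 libraries, and this ratio was not computed by midpoints. Meaf6, a subunit of the catalytic core, was 21.7 ± 2.39 FPKM in iPKO and 25.9 ± 2.16 FPKM in iPHet (SD, n = 4 each, limma adjusted p = 0.111), and Actb, whose actin is a subunit, 1583 ± 76.7 FPKM in iPKO and 1841 ± 118 FPKM in iPHet (SD, n = 4 each, limma adjusted p = 0.118).

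Among the complexes that share subunits with TIP60-p400, SAGA, the other complex of TRRAP, had the most calls. Of its 15 tested identifiers 4 rose, 4 fell and 7 were not called, with a median log2 change of 0.03, where 15.8% of all tested genes were called. With an estimated correlation within pairs 0 of the 15 were called, where 0.417% of all tested genes were. In that fit the 8 had limma adjusted p from 0.0675 (Taf6l) to 0.451 (Tada2b). Tada3, an adaptor of the SAGA acetyltransferase module, rose to 64.0 ± 3.69 FPKM in iPKO, against 35.7 ± 2.82 FPKM in iPHet (SD, n = 4 each), a log2 change of 0.83 (limma adjusted p = 0.000684). Taf6l, a core subunit, rose to 21.8 ± 1.54 FPKM in iPKO, against 14.1 ± 0.714 FPKM in iPHet (SD, n = 4 each, limma adjusted p = 0.00165). Ccdc101, the SGF29 reader of methylated histone H3, fell to 12.8 ± 1.504 FPKM in iPKO, against 22.4 ± 1.89 FPKM in iPHet (SD, n = 4 each), a log2 change of -0.76 (limma adjusted p = 0.00245). It shares 262 bases with the antisense RNA 2510046G10Rik, whose part in the value was not tested. The remaining calls, named after their values were seen, were Tada1 and 1 of the 2 identifiers of Supt20 on the higher side, and Atxn7l3, Usp22 and Tada2b on the lower side. Usp22 was called with all libraries but, with 1 library left out, only without iPKO 3, and Tada2b only without iPHet 1 (limma adjusted p up to 0.104 and 0.101 otherwise). The replicate block ended the call of Tada2b as well (limma adjusted p = 0.0635). In the fit of pair averages with an odd/even term over protein-coding genes, 1.77% of genes were called. There Tada3 and Ccdc101 were called (limma adjusted p of 0.0396 and 0.0489), and Taf6l was not (0.0676). The same fit over all tested genes called 6 of 12462 and 0 of the related genes.

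Of 16 tested identifiers of the SRCAP and INO80 remodelers 3 were called, against 15.8% of all tested genes. None of the 16 was called with an estimated correlation within pairs, where 0.417% of all tested genes were (limma adjusted p of the 3 from 0.242 to 0.477). Nfrkb rose to 16.3 ± 0.341 FPKM in iPKO, against 12.8 ± 0.998 FPKM in iPHet (SD, n = 4 each, limma adjusted p = 0.0133), and 2 genes fell. Actr8 was 11.0 ± 0.669 FPKM in iPKO and 13.5 ± 0.296 FPKM in iPHet (SD, n = 4 each, limma adjusted p = 0.0183), and Uchl5 18.7 ± 1.21 FPKM in iPKO and 22.7 ± 0.806 FPKM in iPHet (SD, n = 4 each, limma adjusted p = 0.0248). Actr8 was not called without iPKO 1 or 2 or iPHet 1 or 3 (up to 0.0538), nor Uchl5 without iPKO 1 or 3 or iPHet 2, 3 or 4 (up to 0.0644). The FPKM of Uchl5 lay outside its deposited bounds in 8 of 8 libraries, and midpoints of the bounds ended its call (limma adjusted p = 0.0535). Ccdc101, Znhit2 and Chek2 also lay outside in 8 of 8, and stayed called with midpoints (limma adjusted p of 0.00382, 0.032 and 0.0122). Of 8 R2TP and TTT co-chaperones, partners of RUVBL1, RUVBL2 and TRRAP, 1 was called, against 15.8% of all tested genes. Znhit2 fell to 4.70 ± 0.848 FPKM in iPKO, against 6.62 ± 0.612 FPKM in iPHet (SD, n = 4 each, limma adjusted p = 0.042). This call ended with the block (0.059), with an estimated correlation (adjusted p = 0.658) and without any 1 library other than iPKO 1 or iPHet 2 (up to 0.103). Pih1d1 (limma adjusted p = 0.0528) and Uri1 (0.231) were next. For Pih1d1 the limma adjusted p was 0.0123 with midpoints of the bounds, but 0.103 with the block and 0.555 with an estimated correlation. The locus of Pih1d1 shares 282 bases with that of Aldh16a1, on the opposite strand and higher in iPKO (limma adjusted p = 0.0135). The part of this neighbour in the Pih1d1 value was not tested. Of the 3 genes of H2A.Z and its chaperone 0 were called, with a median log2 change of -0.45. H2afz was 695 ± 130.5 FPKM in iPKO and 945 ± 122 FPKM in iPHet, and Anp32e, which removes H2A.Z, 48.6 ± 12.8 FPKM in iPKO and 71.8 ± 16.6 FPKM in iPHet (SD, n = 4 each, limma adjusted p of 0.0813 and 0.122). The block called both lower (limma adjusted p of 0.0218 and 0.004), where it called 27.5% of all tested genes. These 2 calls were not made with pair averages and an odd/even term over protein-coding genes (0.31 and 0.0731). With midpoints of the bounds and no block the limma adjusted p was 0.319 for H2afz and 0.108 for Anp32e. H2afv was 126 FPKM in iPKO and 127 FPKM in iPHet. Of the single libraries left out, only iPKO 4 brought H2afz to a call (limma adjusted p = 0.0491). Of 12 genes of ATM activation and the break response 2 were called, against 15.8% of all tested genes. With an estimated correlation within pairs 0 were called, where 0.417% of all tested genes were (limma adjusted p = 0.219 for Chek2 and 0.572 for Rad50). Chek2 fell to 24.1 ± 2.09 FPKM in iPKO, against 33.5 ± 3.10 FPKM in iPHet (SD, n = 4 each, limma adjusted p = 0.012), and Rad50 rose to 18.4 ± 0.737 FPKM in iPKO, against 15.4 ± 1.15 FPKM in iPHet (0.0455), a call lost with the block (0.0555) and without any 1 library other than iPHet 4 (up to 0.108). Rnf168 was next in that list (limma adjusted p = 0.0581, and 0.0286 with the block but 0.368 with pair averages and an odd/even term over protein-coding genes).

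Of 7 other histone acetyltransferases 0 were called, but Kat6b had no usable estimate in 3 libraries. The smallest p were those of Kat6a (limma adjusted p = 0.0993), Crebbp (0.377) and Kat8 (0.431). Kat6b was listed at 0 with the status FAIL in iPKO 3, iPKO 4 and iPHet 3, which is not a measured absence, and between 92.3 and 117 FPKM in the other libraries. Of 8 MORF4L1 and SIN3 partners 0 were called, with Hdac1 at 172 ± 9.09 FPKM in iPKO and 202 ± 12.2 FPKM in iPHet (SD, n = 4 each, limma adjusted p = 0.0529), then Sin3a (0.431) and Pbrm1 (0.62). For Hdac1 the limma adjusted p was 0.0482 with midpoints of the bounds, but 0.0721 with the block and 0.395 with an estimated correlation within pairs. Over the 8 lists, 14 of 78 tested identifiers were called, 6 higher and 8 lower, against 15.8% of all tested genes.

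**Figure D5:**
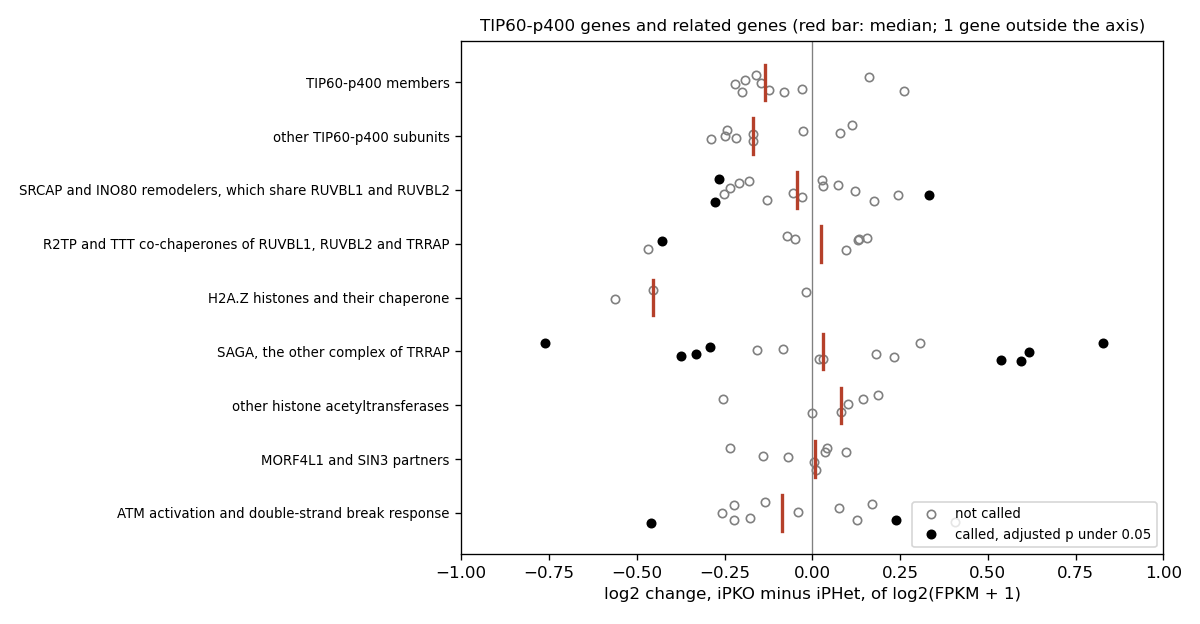
Log2 change (iPKO minus iPHet, horizontal axis) of the 10 TIP60-p400 genes in the top row and of the related genes by list below, filled where called by limma at an adjusted p under 0.05, with a red bar at the median. The top 2 rows hold no filled point, the SAGA row holds 8, and 1 gene (Kat6b) lies outside the axis.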

How the data were processed

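Libraries were made from total RNA with an Illumina TruSeq kit and read as 100-base pairs, per the labels' protocols. The authors deposited FPKM for each gene, with its confidence bounds, per the file headers. The submitters' processing notes name Trimmomatic and mm10. The sources used here give neither aligner, FPKM program, strand nor scaling between libraries. Where an identifier had more than 1 row (19 identifiers), rows were summed. Members were matched by symbol, and the 10 had the status OK in the 8 libraries. GENCODE vM21 gave gene types, strands and exons.

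Differences were tested on log2(FPKM + 1), which understates changes of low genes, with limma 3.58.1 and its trend option (R 4.3.3; data.table package, version 1.17.8). The fit held all 8 libraries, no covariate, and genes that averaged 1 FPKM or more in 1 of the genotypes. A gene was called at a Benjamini-Hochberg adjusted p under 0.05 over all tested genes. The code was tested on simulated data with independent noise in each library. These data held no close pairs, so that test does not cover the pairing seen here.

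Named genes were the 10 members, Prmt5 and the 3 genes with the smallest p in each of 8 lists. Members and lists were chosen with earlier results of these data known. Taf5l was not analysed here. Srcap and Supt20 stand under 2 identifiers each.

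Same-numbered libraries of the genotypes deviated together (correlations of 0.104, 0.162, 0.204 and 0.107 for numbers 1 to 4, each over the limit of 0.1 for paired numbers). The pairing comes from the data, not the labels. Other combinations of 2 odd or 2 even numbers gave 0.077 to 0.124.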

Additional observations from a re-analysis of the deposited data

Results flagged for a closer look

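The genotype difference (iPKO minus iPHet, log2) depended on whether odd or even libraries were taken for 5 of the 10 genes, in an interaction term added after the data were seen (limma adjusted p under 0.05, which 28.5% of all tested genes reached). For Dmap1 the odd minus even difference of the log2 changes was -0.71 (adjusted p = 0.0045), with -0.48 in odd and 0.23 in even libraries. For Ruvbl2 it was -0.34 (adjusted p = 0.019), with -0.37 in odd and -0.03 in even libraries. For Ep400 it was 0.35 (adjusted p = 0.0311), with 0.15 in odd and -0.20 in even libraries. For Kat5 it was -0.33 (adjusted p = 0.038), with -0.24 in odd and 0.08 in even libraries. For Morf4l1 it was -0.25 (adjusted p = 0.0276), with 0.04 in odd and 0.28 in even libraries. The error in this term is the spread within close pairs of libraries. What sets odd and even libraries apart is not in the labels and was not tested. In the 20 groups of 4 libraries, 0 had a single library far from the other 3.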

How the results depend on the processing

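None of the 10 genes was called with pseudocount 0.1, other filters, median ratio scaling, midpoints of the bounds, pair averages, an estimated correlation within pairs, or any 1 library left out. Quantile normalization called 1 (Morf4l1), the replicate block 2 and an odd/even term 2 (each Ruvbl1 and Brd8), where 15.1%, 27.5% and 37.9% of all tested genes were called. Odd libraries alone called 6 and even ones 2, where 45.4% and 40.2% of all genes tested there were called. With median ratio scaling, added after the data were seen, odd libraries called 5 and even ones 3. Of all genes tested there, 44.5% and 39.4% were called. Over all tested genes, 1973 were called, 3427 with the replicate block, 4729 with an odd/even term, 7 with pair averages, 6 with pair averages and that term, 198 when the last fit held protein-coding genes, 52 with an estimated correlation, 5700 in odd and 4932 in even libraries, 5588 in odd and 4843 in even libraries after scaling, and 1264 to 1416 with 1 library left out. In the related lists 14 genes were called, 36 with the odd/even term, 0 with pair averages with or without it, 2 when limited to protein-coding genes, 0 with an estimated correlation, 39 in odd and 32 in even libraries, 35 in odd and 27 in even libraries after scaling, and 8 to 11 with 1 library left out. Prmt5 stayed at -2.13 with pair averages, where its adjusted p was 0.191, and 0.0809 with the term. The sign of Ep400 turned with quantile normalization (0.035), median ratio scaling (0.029), odd libraries (0.15, and 0.23 scaled) and without iPHet 2 (range with 1 library left out -0.083 to 0.046). Other signs that turned were Kat5 in even libraries (0.082, and 0.11 scaled), Dmap1 in even libraries (0.23, and 0.26 scaled), Trrap in scaled odd libraries (0.044) and Ruvbl2 in scaled even libraries (0.0056). Causes were not tested.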
